A study of Mus musculus with 33 samples.

Results

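The glutathione transferases and the target genes of the transcription factor NRF2 form the main detoxifying and antioxidant programme of the liver. A list of 37 such genes was followed across the study, and 36 of them were measured. Each gene was read from the probe set that carries its symbol alone and has the highest mean over all columns, out of 18193 genes chosen in the same way. G6pdx, the first enzyme of the pentose phosphate pathway, had no such probe set. By role, the 36 genes were 15 glutathione transferases, 5 quinone, carbonyl and epoxide enzymes (Nqo1, Cbr1, Cbr3, Aox1, Ephx1), 4 genes of glutathione synthesis (Gclc, Gclm, Gss, Slc7a11), 3 of disulfide reduction (Gsr, Txnrd1, Srxn1), 3 of NADPH supply (Pgd, Taldo1, Tkt), 2 exporters (Abcc3, Abcc4), 2 regulators (Nfe2l2, Keap1) and 2 antioxidant enzymes (Cat, Sod1).

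RNA of mouse liver was hybridised to Affymetrix arrays. All animals were 12 months old, of a mixed background of FVB/NT, 129S1/Svlmj and C57BL/6NT, and no treatment is labelled. Normal liver came from 7 wildtype mice (wt) and 5 E2f3a knock-out mice (3aKO). Spontaneous hepatocellular carcinoma, the common cancer of liver cells, came from 5 E2f1 knock-in mice (1KI) and 4 E2f3b knock-in mice (3bKI). E2F1 and E2F3 are transcription factors of the cell cycle, and E2f3 gives the forms 3a and 3b. The locus of each knock-in, and whether animals shared a litter, are not given in the sources used here. Genotype and tumour coincide in 1KI and 3bKI, so their parts in a difference cannot be told apart. Values are log2 expression values in 2 separate normalizations, with 1KI in normalization 1, 3bKI in normalization 2, and every wt and 3aKO array in both. Hence 1KI and 3bKI are not compared directly, and all comparisons against wt share the wt arrays.

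Precision is set by how many arrays a group has, 4 to 7. The labels give no sex, so it was read from Xist and Y-linked genes: 3 females and 4 males in wt, 3 and 2 in 3aKO, 2 and 3 in 1KI, and 3 females and 1 unclear array (replicate 2) in 3bKI. The 1KI tumours 3 and 4 stood apart on the first principal component of normalization 1, at 61.0 and 69.8, against -17.0 to 5.08 for the other arrays. The beta-actin control, read at its 3' end over its 5' end as a log2 ratio that is higher in less intact RNA, gave 0.63 to 1.38 in wt, 1.09 to 1.35 in 3aKO and 0.91 to 1.28 in 1KI in normalization 1. It was 0.70 to 0.87 in 3bKI, below every 3aKO array (1.06 to 1.35 in normalization 2). E2f3, read by 1 probe set whose place relative to the deleted part is unknown, ranged from 6.42 to 6.88 in 3aKO, 6.59 to 7.03 in wt and 7.14 to 7.81 in 1KI. The labels were thus not checked by it. E2f1, the gene of the 1KI knock-in, ranged from 5.83 to 6.47 in 1KI and 5.84 to 6.22 in wt, a change of 0.17 ± 0.11 (limma, adjusted p = 0.389), so its probe set showed no called rise. The summed log2 level of the 7 measured hepatocyte markers, Alb and Apoa1 among them, lay between 16.8 and 17.1 in every array.

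Glutathione transferases join glutathione to reactive compounds, and microsomal and cytosolic classes differ in the compounds they take. NRF2, encoded by Nfe2l2, is held in the cytoplasm and sent for degradation by KEAP1. When electrophiles or oxidants modify KEAP1, NRF2 reaches the nucleus, pairs with a small MAF protein and binds antioxidant response elements near genes such as Nqo1, Gclc and Srxn1. In mouse liver several of these genes also respond to the xenobiotic receptors CAR and PXR, and many glutathione transferases differ between the sexes.

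The core of the antioxidant response element, TGACNNNGC on either strand, was searched in RefSeq promoters of build GRCm38.p6, from 250 bases before to 50 after a start. Of the 32 listed genes in that table, 10 held it (31.3%), against 14.0% of 27025 genes in all. The sequences below lie before the start and are shown because the gene passed a test in the comparisons (Nfe2l2, Sod1, Abcc4) or is a standard NRF2 target (Gclm, Txnrd1). They read 5' to 3' on the gene's own strand, with the core, or its reverse complement, in capitals.
Nfe2l2, minus strand, chr2:75704879-75704913: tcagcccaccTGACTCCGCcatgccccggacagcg
Sod1, plus strand, chr16:90220690-90220730: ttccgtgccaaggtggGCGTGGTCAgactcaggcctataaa
Abcc4, minus strand, chr14:118706220-118706260: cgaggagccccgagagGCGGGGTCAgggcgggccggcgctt
Gclm, plus strand, chr3:122245407-122245447: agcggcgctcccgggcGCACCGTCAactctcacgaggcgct
Txnrd1, plus strand, chr10:82859098-82859138: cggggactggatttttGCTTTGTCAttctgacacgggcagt
In Srxn1 and Pgd the core began after the start and is not printed. G6pdx, Gsta3 and Mgst1 held it as well. The genes Gstm3, Cbr3, Tkt, Cbr1, Gstp1 and Nqo1, which also passed a test in the comparisons, held no TGACNNNGC in the stretch searched. Nqo1 is a standard NRF2 target. Other forms of the core, and bases farther from a start, were not searched, so an element there would be missed. Abcc3 and Gclc were not among the 32 genes. The AP-1 site TGANTCA, which reads alike on both strands and can lie inside an antioxidant response element, was added after the values were seen. It occurred in Srxn1, Gstp1 and Aox1, 3 of the 32 genes (9.38%), against 8.97% of all genes. Srxn1 held it at 102 and 45 bases before the start, and this 96-base stretch is shown because Srxn1 had the lowest p of the list in the 3bKI tumours:
Srxn1, plus strand, chr2:152105406-152105501: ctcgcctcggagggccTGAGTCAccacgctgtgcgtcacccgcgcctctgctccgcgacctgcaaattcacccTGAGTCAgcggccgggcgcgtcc
Gstp1, minus strand, chr19:4037964-4038002: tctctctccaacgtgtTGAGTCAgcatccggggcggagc
None of the 32 genes held the E2F cores TTTCCCGC, TTTGGCGC or TTTCGCGC on either strand, against 2.12% of all genes. These are matches of letters, not shown sites of binding.

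In normal 3aKO liver no gene of the list passed the test against wt. With limma and adjustment over all 18193 genes, 0 were higher and 0 lower at an adjusted p under 0.05, and 0% of all genes were called in either direction. At an unadjusted p under 0.05, 10 of the 36 were higher (Cbr3, Gsta2, Gsta4, Gstk1, Gstm1, Gstm3, Gstt2, Mgst3, Nqo1, Srxn1) and 0 lower, beside 3.62% of all genes higher and 3.84% lower. The median log2 change was 0.21 over the 36 genes and 0.0017 over all genes, and 30 of the 36 lay above 0, beside 50.5% of all genes. Among the 15 glutathione transferases the median was 0.39 and 14 lay above 0, the exception being Mgst1. In 0 genes of the list did all 3aKO arrays lie above, or all below, the wt range, beside 0.214% and 0.286% of all genes.

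The 4 genes of lowest p in 3aKO liver were all glutathione transferases. Gsta2, an alpha class enzyme, measured 9.71, 10.83, 9.06, 10.70 and 9.90 in 3aKO replicates 1 to 5, against a lowest, median and highest of 6.47, 8.57 and 9.49 in wt. Replicate 3 lay within the wt range and the other 4 above it. The log2 change was 1.73 ± 0.48 (moderated SE, n = 5 and 7, limma, adjusted p = 0.641), a 3.33-fold higher mean. A probe set that Gsta2 shares with Gsta1 and Gm3776 changed by 1.81 ± 0.50.

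Gsta4, the alpha class enzyme for the lipid peroxidation product 4-hydroxynonenal, measured 11.05, 11.00, 10.81, 11.18 and 10.98 in 3aKO and 10.16, 10.60 and 10.83 at the lowest, median and highest in wt. Only 3aKO replicate 3 overlapped wt. The change was 0.48 ± 0.11 (limma, adjusted p = 0.641). Gstk1, the kappa class enzyme of mitochondria and peroxisomes, measured 12.53, 12.25, 12.35, 12.29 and 12.53 in 3aKO, and 11.37, 11.72 and 12.59 in wt. One wt liver, replicate 2, was above all 3aKO livers. The change was 0.54 ± 0.17, with the same adjusted p.

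Gstt2, a theta class enzyme, measured 11.67, 11.43, 11.26, 11.90 and 11.70 in 3aKO, and 10.67, 11.10 and 11.64 in wt. In 3aKO, 3 livers lay above the wt range. The change was 0.48 ± 0.15 (limma, adjusted p = 0.641). Nqo1, the quinone reductase used as a standard NRF2 target, measured 6.84, 6.70, 7.05, 6.87 and 7.53 in 3aKO, and 5.96, 6.27 and 7.16 in wt. Its change of 0.53 ± 0.23 (adjusted p = 0.658) lay within overlapping ranges, since the female wt livers were as high as 3aKO.

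Of the 4 genes of glutathione synthesis, 3 lay at or below wt in 3aKO and Gss, glutathione synthetase, lay above it at 0.14 ± 0.10. Gclc, the catalytic subunit of glutamate-cysteine ligase, changed by -0.03 ± 0.23, and its modifier subunit Gclm by -0.23 ± 0.14. Slc7a11, the cystine carrier, changed by -0.13 ± 0.07. Nfe2l2 itself changed by 0.03 ± 0.15 and Keap1 by 0.09 ± 0.09. Adjusted p was between 0.699 and 0.983 for these 6 genes.

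In 3aKO liver most of the listed genes lay above wt in males, and about as many lay above as below in females. In 2 male 3aKO against 4 male wt livers the median change of the 36 genes was 0.54 and 32 lay above 0, beside a median of 0.0032 and 50.8% over all genes. In 3 female 3aKO against 3 female wt livers the median was -0.02 and 17 lay above 0, beside -0.0031 and 49.1%. With limma 0 genes of the list were called in either sex, and 0% of all genes were. In males 15 were higher and 0 lower at an unadjusted p under 0.05, beside 2.42% and 2.08% of all genes. In females 1 was higher and 1 lower, beside 3.01% and 2.52%. The male comparison was added after the data were seen. The male wt livers were uneven over the list. Male wt 4 and 7 had median deviations from the wt mean of -0.21 and -0.19, with 5 and 9 of the 36 genes above that mean. Male wt 1 and 5 had -0.02 and 0.08, and male 3aKO 2 and 4 had 0.22 and 0.42.

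Gsta2 had the widest gap between the sexes. Male wt livers, replicates 1, 4, 5 and 7, measured 8.57, 6.47, 8.42 and 7.26, and male 3aKO livers, replicates 2 and 4, measured 10.83 and 10.70. Female wt livers, replicates 2, 3 and 6, measured 8.88, 9.06 and 9.49, and female 3aKO livers, replicates 1, 3 and 5, measured 9.71, 9.06 and 9.90. The male groups did not overlap and the female groups did. The log2 change was 3.09 in males and 0.41 in females, a difference of 2.67 ± 0.66 (limma interaction, unadjusted p = 0.0016, adjusted p = 0.999).

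Over the list, 7 genes had an interaction of that direction at an unadjusted p under 0.05 (Gsta2, Gstm1, Gstm2, Gstm4, Mgst3, Ephx1, Tkt), beside 1.78% of all genes, and 0 the opposite, beside 1.40%. No gene of the series passed adjustment, so a difference between the sexes was not established for any of them. Mgst3, a microsomal glutathione transferase, changed by 1.10 in males and -0.01 in females. Ephx1, microsomal epoxide hydrolase, changed by 0.83 in males and -0.30 in females. With 2 male 3aKO livers these values rest on few animals.

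Genes of pericentral hepatocytes, the zone around the central vein where many of these enzymes are made, stood beside the 3aKO values. Their summed log2 level was 14.8 to 15.1 in 3aKO and 14.4 to 14.8 in wt, and 8 of the 9 had a change above 0. None of the 9 was called and 4 had an unadjusted p under 0.05 (Lgr5, Notum, Nkd1 and Oat, limma). Cyp2b10, the standard CAR target, changed by 1.70 ± 0.64 (limma, adjusted p = 0.641). Of 8 CAR, PXR and AHR targets 0 were called, 6 lay above 0 and 2 were higher at an unadjusted p under 0.05. Their summed log2 level was 13.6 to 15.2 in 3aKO and 14.0 to 14.6 in wt. The part of these genes in the values of the list was not tested.

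**Figure D1:**
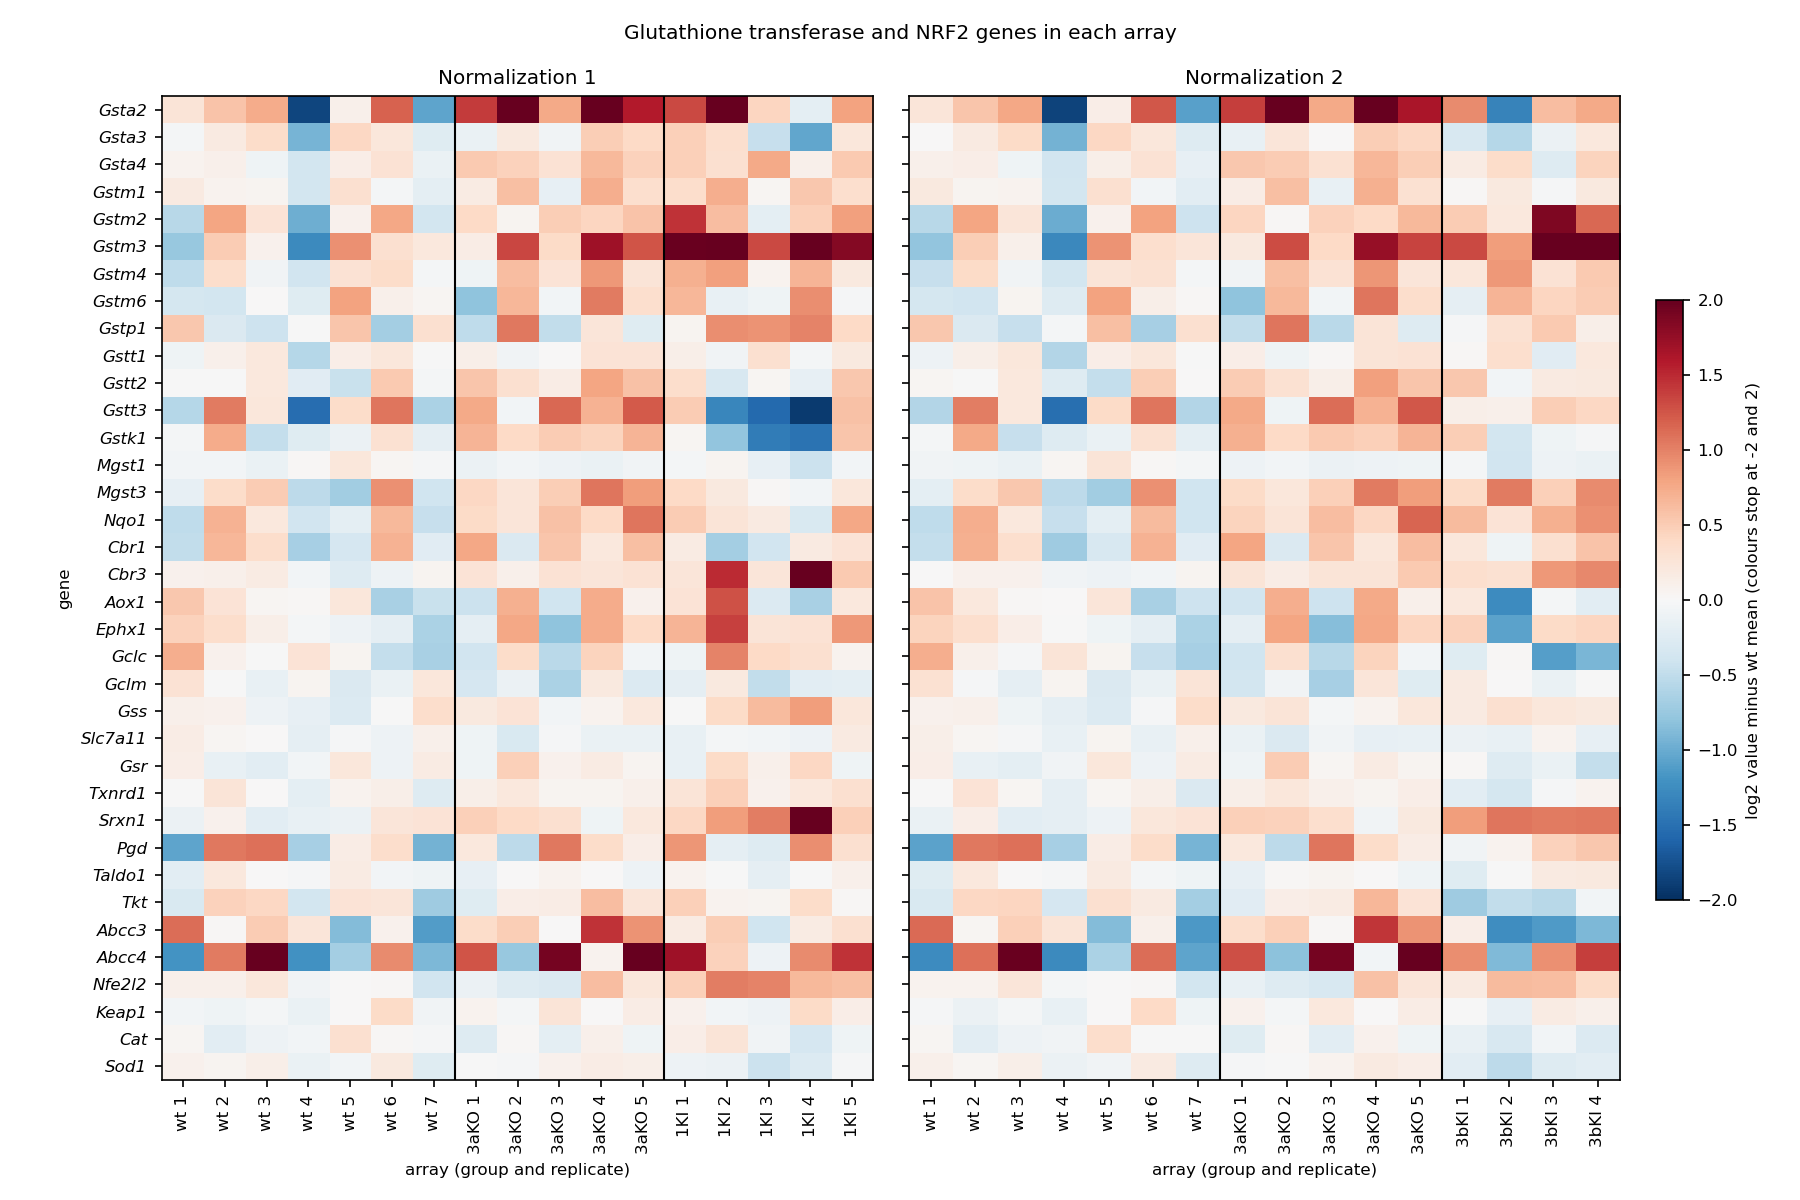
Log2 expression value of each of the 36 genes minus its wt mean, for every array of normalization 1 (left) and normalization 2 (right), in genes by arrays; red is above and blue below the wt mean, and colours stop at -2 and 2. Gstm3 is red in nearly every tumour, Srxn1 in the 3bKI tumours and 1KI 4, Gsta2 in 3aKO liver, and Abcc4 varies within every group.

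In the 1KI tumours Nfe2l2 and Gstm3 rose against wt. With limma 2 of 36 genes were higher, where 0.209% of all genes were, and 0 were lower, where 0.0330% of all genes were. At an unadjusted p under 0.05, 11 were higher and 0 lower, beside 9.05% and 10% of all genes. The median change was 0.23 over the list and -0.03 over all genes, and 26 of the 36 lay above 0, beside 43.3% of all genes. In 4 genes every tumour lay above every wt liver (Cbr3, Gstm3, Nfe2l2, Srxn1), beside 1.12% of all genes, and in 0 below, beside 0.863%.

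Nfe2l2, which encodes NRF2, measured 10.59, 11.14, 11.11, 10.77 and 10.71 in 1KI replicates 1 to 5, and 9.73, 10.14 and 10.35 at the lowest, median and highest in wt. All 5 tumours lay above the wt range, and 3aKO replicate 4, at 10.73, reached into the tumour range. The change was 0.75 ± 0.12 (limma, adjusted p = 0.0334), a 1.68-fold higher mean. A second, dimmer Nfe2l2 probe set changed by 0.38 ± 0.12 against wt and -0.01 against 3aKO, so only the brighter probe set showed a difference of that size from 3aKO.

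Gstm3, a mu class glutathione transferase, measured 12.15, 12.94, 11.50, 12.34 and 12.01 in 1KI, and 8.89, 10.39 and 11.08 in wt. The 3aKO livers, at 10.33, 11.51, 10.56, 11.87 and 11.44, had a mean between the groups (11.14) but overlapped both. The values 10.33 and 10.56 lay inside the wt range, and 2 livers lay above the lowest tumour. The change against wt was 2.02 ± 0.35 (limma, adjusted p = 0.0394), a 4.05-fold higher mean, and 1.73 ± 0.33 in a second probe set. Gstm1, Gstm2, Gstm3, Gstm4 and Gstm6 are neighbours on chromosome 3 with near-identical stretches, and probe sets of the family may share transcripts.

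Both calls rested on the full set of arrays. Without any 1 of the 12 arrays Gstm3 had a limma adjusted p of 0.0534 to 0.0890 and a change of 1.80 to 2.19. Nfe2l2 kept its call without wt 3, wt 7, 1KI 1 or 1KI 2, and lost it without any other array, with a change of 0.68 to 0.82 throughout. Without both 1KI 3 and 1KI 4 neither was called, at 2.20 ± 0.41 (adjusted p = 0.0764) and 0.70 ± 0.14 (adjusted p = 0.104).

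Srxn1, the sulfiredoxin that repairs oxidised peroxiredoxins, measured 8.97, 9.38, 9.58, 11.36 and 9.03 in 1KI, and 8.34, 8.44 and 8.82 in wt. Every tumour was above wt and replicate 4 was far above the others. The change was 1.11 ± 0.33 (limma, adjusted p = 0.148), and 0.69 without that array. Cbr3, a carbonyl reductase, measured 5.75, 7.00, 5.75, 8.28 and 6.02 in 1KI, and 5.25, 5.56 and 5.67 in wt. Replicates 2 and 4 stood above the other 3 tumours, and the change of 1.06 ± 0.36 (adjusted p = 0.178) did not pass.

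Gsta4 measured 11.01, 10.85, 11.29, 10.63 and 11.06 in 1KI, beside 10.81 to 11.18 in 3aKO. It changed by 0.44 ± 0.13 against wt (limma, adjusted p = 0.147) and -0.04 ± 0.12 against 3aKO. Ephx1 and Gss changed by 0.69 ± 0.22 and 0.41 ± 0.14 against wt (adjusted p = 0.156 and 0.184). Keap1, at 9.38, 9.25, 9.19, 9.67 and 9.43, changed by 0.09 ± 0.11. Gclc, at 11.77, 12.84, 12.25, 12.17 and 11.93, changed by 0.34 ± 0.23 and Gclm, at 11.43, 11.81, 11.13, 11.41 and 11.42, by -0.18 ± 0.13, and each was inside the wt range in 4 of 5 tumours. Nqo1, at 6.97, 6.72, 6.64, 6.16 and 7.23, changed by 0.28 ± 0.25. None of Nqo1, Gclc and Gclm was called beside the higher Nfe2l2.

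Against 3aKO liver, limma called 0 genes of the list higher and 0 lower in the 1KI tumours, with 0% of all genes called. At an unadjusted p under 0.05, 2 were higher (Gstm3, Nfe2l2) and 5 lower (Gstk1, Gstt2, Gstt3, Mgst3, Sod1), beside 6.00% and 8.01% of all genes. Sod1, cytosolic superoxide dismutase, was the 1 gene whose tumours all lay below every 3aKO liver, beside 1.96% of all genes, at -0.26 ± 0.09 (adjusted p = 0.265). In 0 genes did all tumours lie above, beside 1.45%. The median change was 0.02 over the list and -0.02 over all genes, and 21 of the 36 lay above 0, beside 45.3% of all genes. Nfe2l2 differed by 0.71 ± 0.18 (adjusted p = 0.202) and Gstm3 by 1.05 ± 0.33 (adjusted p = 0.243).

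Gstk1 and Gstt3 split the 1KI tumours. Gstk1 measured 11.88, 11.05, 10.45, 10.37 and 12.39, and Gstt3, a theta class enzyme, 10.30, 8.48, 8.24, 7.88 and 10.38. The male tumours 2, 3 and 4 were low in both and the female tumours 1 and 5 were high, so sex and the arrays that stand apart move with these values. Against 3aKO Gstk1 differed by -1.16 ± 0.35 and Gstt3 by -1.49 ± 0.51 (limma, adjusted p = 0.238 and 0.265). In 3aKO Gstt3 measured 10.55, 9.73, 10.94, 10.48 and 11.03. In the limma interaction with sex, at an unadjusted p under 0.05, the signed male minus female change against 3aKO was above 0 in 0 genes (2.50% of all) and below 0 in 3 (2.87%). These were Gstk1, at -1.65 in males and -0.33 in females, Gstt3, at -1.91 and -0.49, and Gstt2, at -0.70 and 0.01. Against wt it was above 0 in Mgst3, Abcc4 and Nfe2l2 (3.22%) and below 0 in Gstk1 (3.00%), which changed by -1.08 in males and 0.10 in females. None passed adjustment.

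Some markers of other cells also differed between 1KI tumours and wt. Pdgfrb, of stellate cells, rose by 0.76 ± 0.12 and Plvap, of endothelium, by 1.00 ± 0.16 against wt (limma, adjusted p = 0.0285 and 0.0334), as 1 of 8 stellate and 1 of 6 endothelial markers. The summed stellate level was 12.0 to 13.0 in 1KI and 11.9 to 12.4 in wt, and the endothelial one 10.9 to 11.5 and 10.7 to 11.1. Of 8 macrophage markers 0 were called, 6 lay below 0 and 3 were lower at an unadjusted p under 0.05 (Adgre1, Timd4, Marco), with a median change of -0.64. Their summed level was 11.8 to 13.3 in 1KI and 12.3 to 13.3 in wt. Of 9 pericentral genes 0 were called and 1 lay above 0, with a median change of -0.55 against wt. The pericentral sum was 10.97 at the lowest, 14.88 at the median and 14.97 at the highest in 1KI, against 14.43, 14.71 and 14.85 in wt. Their part was not tested. In whole tissue, fewer cells of a type and less RNA per cell cannot be told apart.

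**Figure D2:**
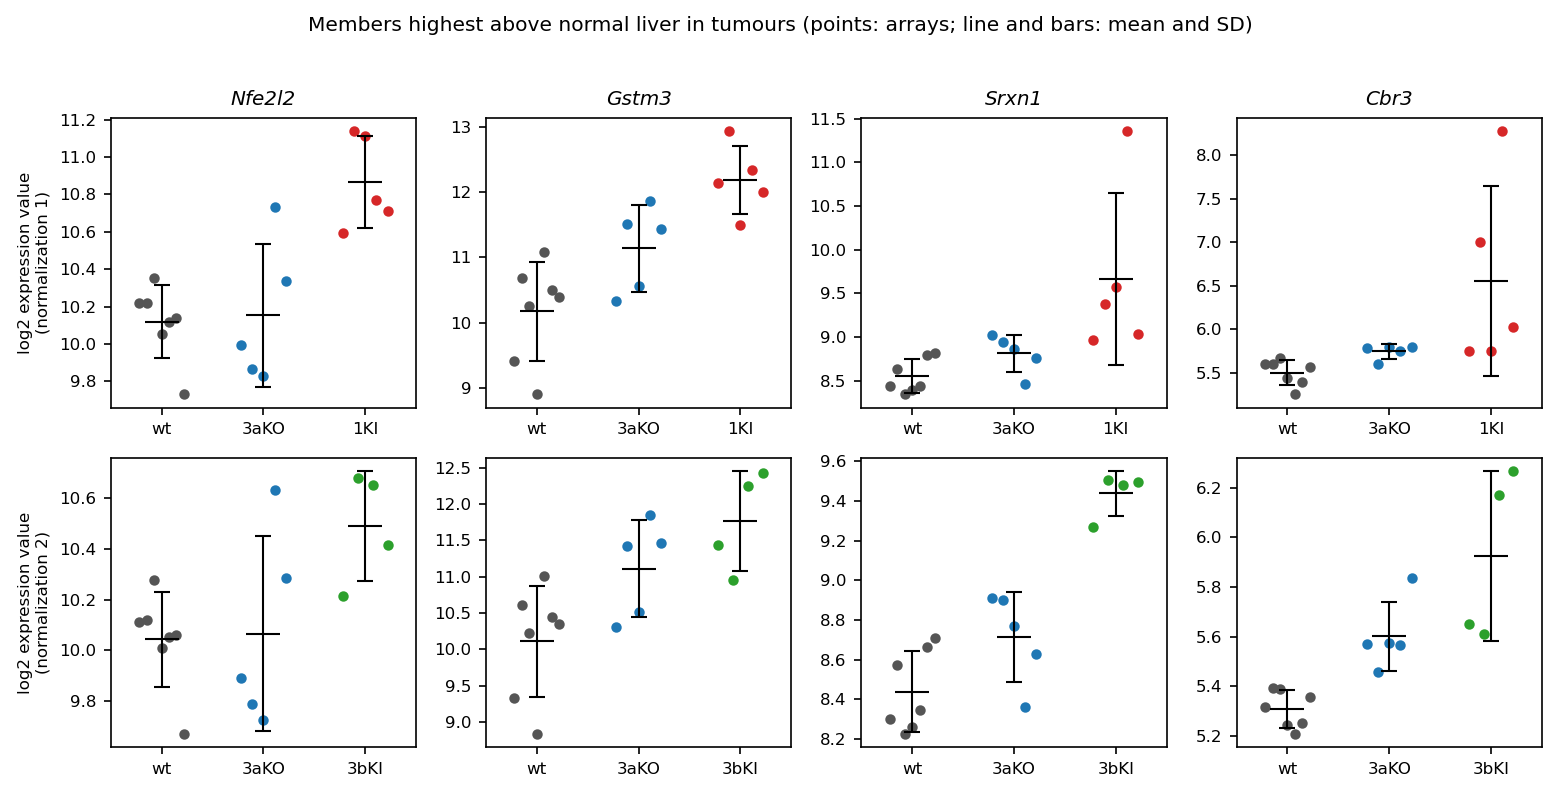
Log2 expression values of Nfe2l2, Gstm3, Srxn1 and Cbr3, with 1 point per array, for wt (n = 7), 3aKO (n = 5) and 1KI (n = 5) in normalization 1 (top) and wt, 3aKO and 3bKI (n = 4) in normalization 2 (bottom); lines and bars are mean and SD. In each of the 4 genes the tumour mean is the highest of its panel, and 1KI 4 is far above the other arrays in Srxn1 and Cbr3.

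In the 3bKI tumours Srxn1 rose 2.00-fold and Cbr3 1.53-fold against wt. With limma 2 of 36 genes were higher, where 1.09% of all genes were, and 0 lower, where 0.978% were. At an unadjusted p under 0.05, 8 were higher and 1 lower (Sod1), beside 9.84% and 10.9% of all genes. Srxn1 and Cbr3 were also the 2 genes whose tumours all lay above wt, beside 1.90% of all genes, and 0 lay all below, beside 2.38%. The median change was 0.14 over the list and 0.01 over all genes, and 25 of the 36 lay above 0, beside 53.1%.

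Srxn1 measured 9.27, 9.51, 9.48 and 9.50 in 3bKI replicates 1 to 4, and 8.22, 8.34 and 8.71 at the lowest, median and highest in wt. The 3aKO livers measured 8.91, 8.90, 8.77, 8.36 and 8.63, so the tumours lay above all 12 normal livers. The change was 1.00 ± 0.11 against wt (limma, adjusted p = 0.0050) and 0.72 ± 0.12 against 3aKO (adjusted p = 0.0143). The brighter pair of its 3 other probe sets changed by 0.80 ± 0.11 and 0.80 ± 0.09 against wt, and the dim one by 0.16 ± 0.08. With the RNA control ratio as a covariate Srxn1 changed by 0.81 ± 0.11 against wt and lost its call (adjusted p = 0.110).

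Cbr3 measured 5.65, 5.61, 6.17 and 6.27 in 3bKI, and 5.21, 5.32 and 5.39 in wt. The median of all probe sets was 5.34 to 5.43 in the arrays of normalization 2, so Cbr3 was dim in wt. The tumours lay above wt, and replicates 1 and 2 lay within the 3aKO values of 5.57, 5.46, 5.57, 5.57 and 5.84. The change was 0.62 ± 0.12 (limma, adjusted p = 0.0330), a 1.53-fold higher mean. It was lost without wt 1, 2, 3, 4 or 5 or without 3bKI 3 or 4, with adjusted p of 0.0556 to 0.101, while Srxn1 kept its call without each array. Cbr3 also lost its call with the RNA control ratio or sex as a covariate and with females only (adjusted p = 0.244, 0.0953 and 0.162), at changes of 0.68 to 0.69.

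Gstm3 and Nfe2l2, called in 1KI, lay near the threshold in 3bKI and were not called. Gstm3 measured 11.44, 10.95, 12.25 and 12.43 against 8.83, 10.35 and 11.01 in wt, and only 3bKI replicate 2 overlapped wt. Its change was 1.66 ± 0.40 (limma, adjusted p = 0.0567), and it was called with centred arrays, without the dimmest genes, with all 3 groups in the fit, with array weights or without wt 7 (adjusted p of 0.0301 to 0.0496). Gstm3 stayed uncalled in 8 of 12 settings and in 10 of 11 fits without 1 array, with a limma adjusted p up to 0.405. Nfe2l2 measured 10.22, 10.68, 10.65 and 10.42 against 9.67, 10.06 and 10.28, with 1 tumour inside the wt range, and changed by 0.45 ± 0.12 (adjusted p = 0.0732). It was called after quantile normalization or without 3bKI 1 (adjusted p = 0.0416 and 0.0387). In 11 of 12 settings and in 10 of 11 fits without 1 array it stayed uncalled. Its change fell as low as 0.26 and its limma adjusted p reached 0.478. Its second probe set changed by 0.07 ± 0.18. Whether the 1KI and 3bKI tumours differ in these genes was not tested.

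Among the standard targets, Nqo1 measured 6.96, 6.60, 7.04 and 7.24 in 3bKI and changed by 0.63 ± 0.25 (limma, adjusted p = 0.181). It measured 5.82, 6.14 and 7.05 in wt, so 3 of the 4 tumours overlapped wt. Mean Nqo1 was 7.08 in female 3bKI tumours, 6.85 in female wt livers and 5.93 in male wt livers, and no 3bKI array read as male. Gclc measured 11.52, 11.78, 10.66 and 10.84 and changed by -0.56 ± 0.27, replicates 3 and 4 lying below the wt range of 11.10 to 12.50. Gclm, at 11.71, 11.54, 11.40 and 11.52, changed by 0.01 ± 0.12. Keap1, at 9.14, 8.98, 9.32 and 9.25, changed by 0.03 ± 0.11.

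**Figure D3:**
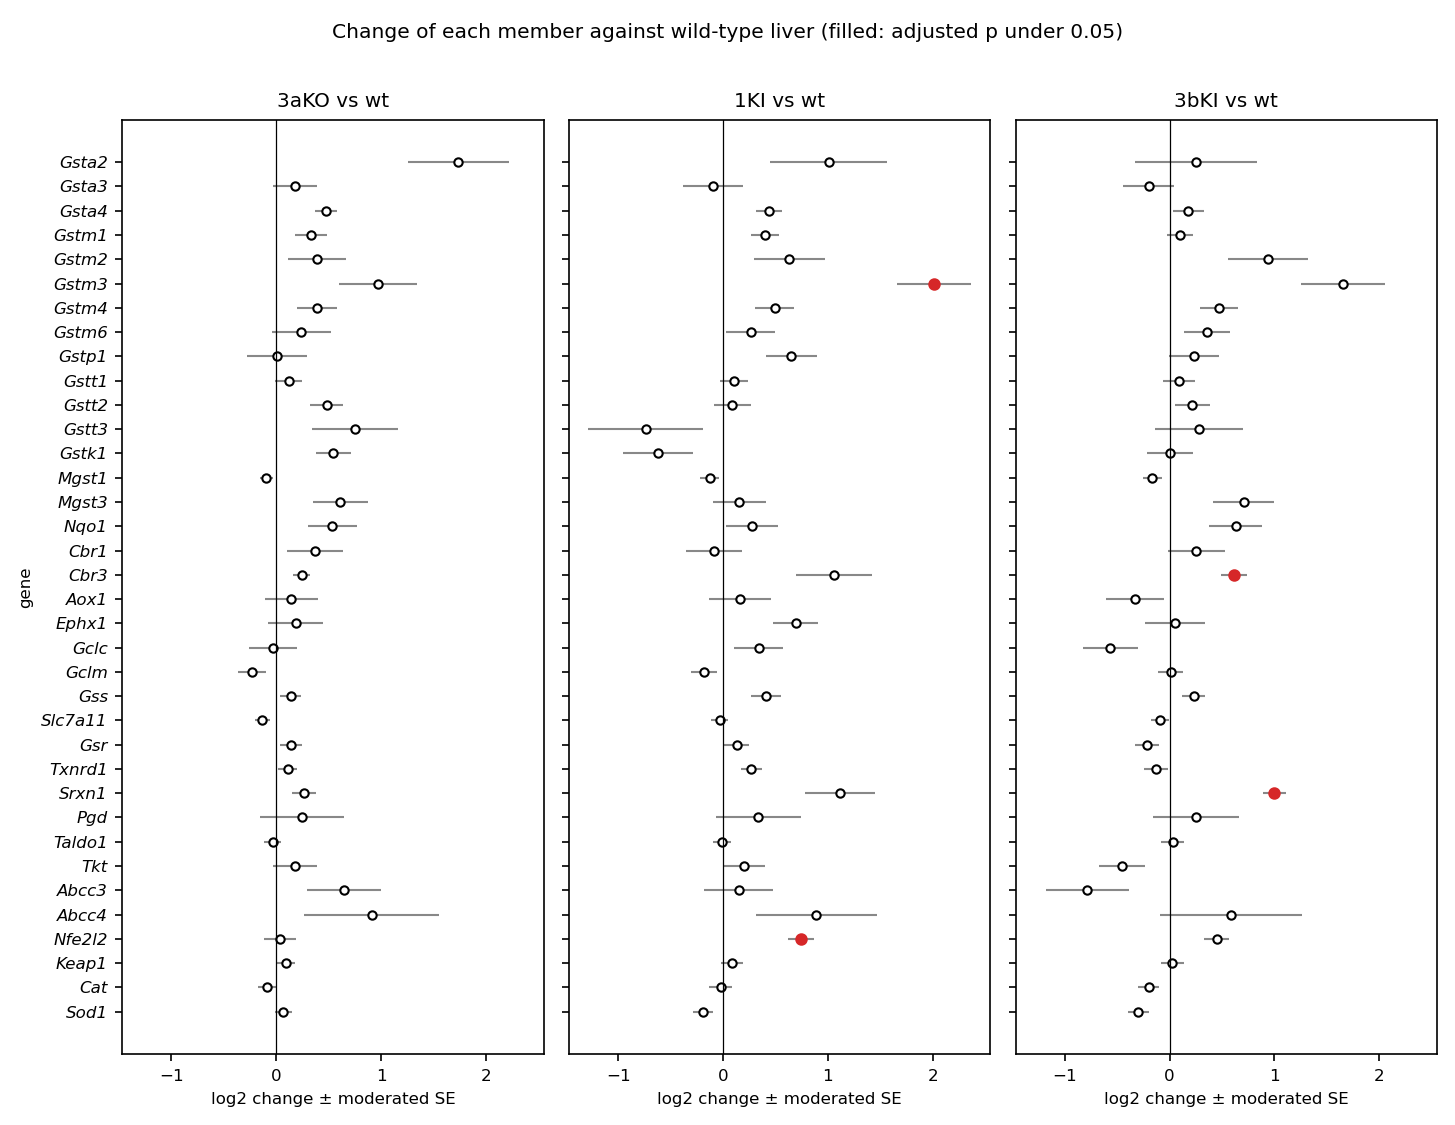
Log2 change of each of the 36 genes (vertical axis) against wt in 3aKO liver, 1KI tumours and 3bKI tumours, with moderated standard errors as bars; filled red points have an adjusted p under 0.05. No point is filled for 3aKO, Gstm3 and Nfe2l2 are filled for 1KI, and Cbr3 and Srxn1 for 3bKI; the 3 panels share the wt animals.

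Against 3aKO liver the 3bKI tumours had more lower than higher calls. With limma Srxn1 was higher, 1 of 36 genes beside 2.92% of all genes, and Abcc3, Sod1 and Tkt were lower, 3 of 36 (8.33%) beside 6.27% of all genes. The share of lower calls was thus near that of all genes. At an unadjusted p under 0.05, 2 were higher (Nfe2l2, Srxn1) and 9 lower, beside 13.4% and 15.7% of all genes. The 9 were Abcc3, Gsr, Gsta2, Gsta3, Gsta4, Gstk1, Sod1, Tkt and Txnrd1. Gsta2 had the largest change of the list, at -1.49, and was not called. Its mean was 8.42 in 3bKI, 9.91 in 3aKO and 8.17 in wt. The median change was -0.09 over the list and 0.03 over all genes, and 14 of the 36 lay above 0, beside 54.7%. Srxn1 lay above all 3aKO livers, beside 6.03% of all genes, and Sod1 below all, beside 8.95%.

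Abcc3, a basolateral exporter of glucuronides and bile acids, measured 9.90, 8.52, 8.63 and 8.87 in 3bKI, and 10.11, 10.25, 9.78, 11.20 and 10.66 in 3aKO. Replicates 2, 3 and 4 lay below all 3aKO livers and replicate 1 among them. The change was -1.42 ± 0.33 (limma, adjusted p = 0.0321), a 2.68-fold lower mean, and -0.78 ± 0.40 against wt (adjusted p = 0.284).

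Sod1 measured 13.06, 12.76, 13.02 and 13.07 in 3bKI, and 13.26, 13.26, 13.35, 13.46 and 13.41 in 3aKO. No tumour reached the 3aKO range, and the change was -0.37 ± 0.09 (limma, adjusted p = 0.0353). Of its 4 other probe sets, a dim one changed by 0.03 ± 0.10, and the others by -0.56 ± 0.10, -0.52 ± 0.17 and -0.14 ± 0.10.

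Tkt, transketolase of the pentose phosphate pathway, measured 10.77, 10.98, 10.92 and 11.42 in 3bKI, and 11.26, 11.61, 11.64, 12.14 and 11.75 in 3aKO. Tumour replicate 4 lay within the 3aKO range and the other 3 below. The change was -0.66 ± 0.18 (limma, adjusted p = 0.0483), but -0.20 ± 0.13 in a second bright probe set. Gstk1, at 12.24, 11.39, 11.68 and 11.74, came close with -0.55 ± 0.15 (adjusted p = 0.0512).

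These 3 lower calls were lost, in whole or in part, on leaving out single arrays. Abcc3, Sod1 and Tkt were all uncalled without 3aKO 4, 3aKO 5, 3bKI 2 or 3bKI 3. Without 3aKO 2 only Gstt3 was called lower, without 3aKO 3 only Abcc3, and without 3bKI 4 only Tkt. Without 3bKI 1, Tkt alone was lost (adjusted p = 0.0985). The RNA control ratio did not overlap between these groups, and with it as a covariate the changes were -1.22 ± 0.84 for Abcc3, -0.04 ± 0.19 for Sod1, -0.02 ± 0.39 for Tkt and 0.41 ± 0.28 for Srxn1 (limma, adjusted p between 0.847 and 0.996). Since the ratio and the groups do not overlap, they cannot be told apart here. In the 3 female 3bKI and 3 female 3aKO animals the changes were -1.05 ± 0.35, -0.29 ± 0.09, -0.51 ± 0.20 and 0.65 ± 0.12 in that order, none called.

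**Figure D4:**
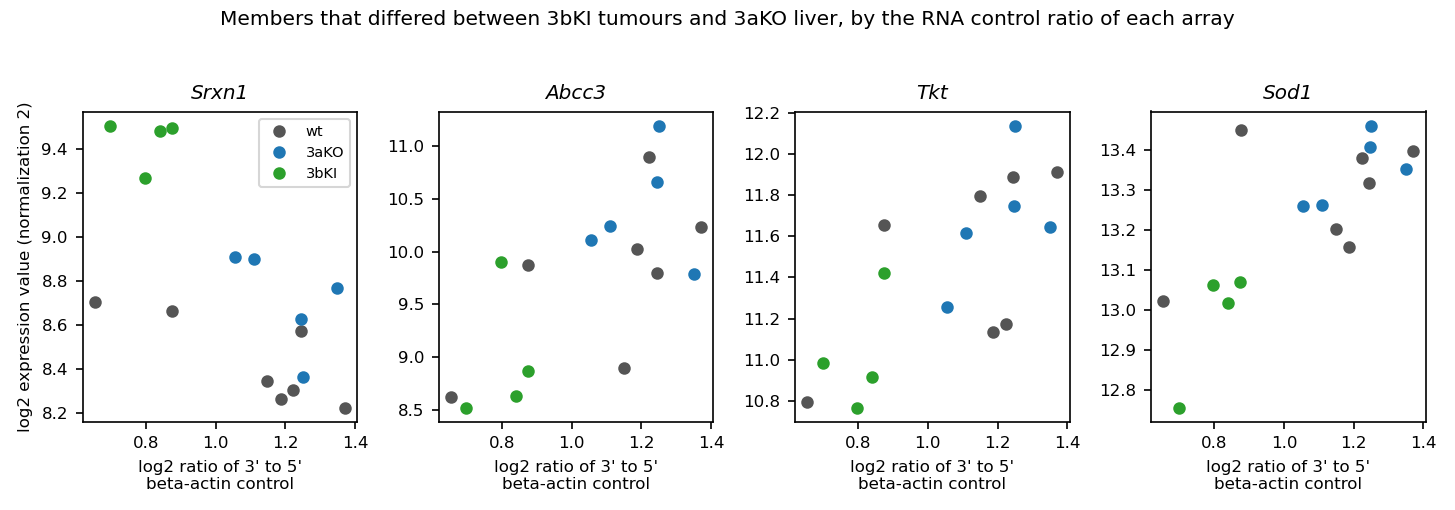
Log2 expression values of Srxn1, Abcc3, Tkt and Sod1 in normalization 2 (vertical axes) by the log2 beta-actin control ratio (3' over 5') of the same array (horizontal axes), with 1 point per array in wt (n = 7), 3aKO (n = 5) and 3bKI (n = 4). The 3bKI arrays lie at ratios of 0.70 to 0.87 and the 3aKO arrays at 1.06 to 1.35, and the wt arrays span both.

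Some stromal and hepatocyte genes also differed between 3bKI tumours and normal liver. Of 8 stellate markers 3 were higher than in 3aKO, Col1a1 by 1.15 ± 0.16, Col1a2 by 1.15 ± 0.23 and Col3a1 by 1.55 ± 0.37 (limma, adjusted p = 0.0109, 0.0207 and 0.0353). The summed stellate level was 12.0 to 13.1 in 3bKI and 12.0 to 12.4 in 3aKO. Against wt the same 3 collagen genes were higher, by 1.21 ± 0.22, 1.27 ± 0.21 and 1.71 ± 0.33 (adjusted p = 0.0238, 0.0206 and 0.0294). Of 8 macrophage markers Lyz2 was higher than in 3aKO, by 1.06 ± 0.27 (adjusted p = 0.0397). Of 7 hepatocyte markers 2 were lower, Apob by -1.24 ± 0.12 and Cps1 by -0.43 ± 0.09 (adjusted p = 0.0040 and 0.0215). Of 8 CAR, PXR and AHR targets, 4 lay above 0 and 1 was called, Cyp2b10, lower by -2.13 ± 0.48 (adjusted p = 0.0293). Of 9 pericentral genes, 1 lay above 0 and 1 was called, Oat, lower by -1.65 ± 0.38 (adjusted p = 0.0319). The part of these genes was not tested.

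Abcc4, between the sexes, had the largest called difference of the list. In the 12 normal livers, with genotype as a covariate, limma called Gstp1 higher in males, 1 of 36 genes beside 1.10% of all genes. It called Abcc4, Cbr1 and Nqo1 lower, 3 of 36 beside 1.43%. At an unadjusted p under 0.05, 5 were higher and 7 lower, beside 7.60% and 8.35% of all genes. Gstp1 lay wholly above and Abcc4 and Cbr1 wholly below the other sex, beside 1.07% and 1.19% of all genes. The median difference was -0.08, and 14 of the 36 lay above 0, beside 48.1%.

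Abcc4, an exporter of bile acids and cyclic nucleotides, measured 7.16, 8.13 and 7.07 in female wt and 7.39, 8.04 and 8.18 in female 3aKO. In males it measured 4.92, 4.91, 5.45 and 5.22 in wt and 5.37 and 6.19 in 3aKO. All 6 females lay above all 6 males. The difference was -2.23 ± 0.21 (limma, adjusted p = 8.6e-05), a 4.69-fold lower mean in males.

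Cbr1, the neighbour of Cbr3 on chromosome 16, measured 10.87, 10.55 and 10.90 in female wt, 10.97, 10.76 and 10.80 in female 3aKO, 9.71, 9.53, 9.86 and 9.97 in male wt and 9.91 and 10.40 in male 3aKO. The sexes did not overlap, and the difference was -0.87 ± 0.12 (limma, adjusted p = 0.0013). Nqo1 measured 7.16, 6.67 and 7.11 in female wt, and 5.96, 6.08, 6.27 and 6.01 in male wt. The wt sexes did not overlap, while male 3aKO, at 6.70 and 6.87, reached the female range. Its difference was -0.68 ± 0.14 (adjusted p = 0.0251), and it was uncalled without wt 1, 2, 4 or 6 or 3aKO 2 or 5 (adjusted p of 0.0515 to 0.0771).

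Gstp1, the pi class enzyme, went the other way. It measured 13.67, 13.11, 13.68 and 13.44 in male wt and 14.18 and 13.37 in male 3aKO, against 12.84, 12.71 and 12.44 in female wt and 12.62, 12.63 and 12.88 in female 3aKO. The sexes did not overlap, and the difference was 0.92 ± 0.15 (limma, adjusted p = 0.0050). In wt livers alone it was 0.81 and uncalled (adjusted p = 0.0590). In 1KI the male tumours measured 14.05, 14.03 and 14.11 and the female tumours 13.19 and 13.52, so the order held in the tumours. Gstt3, Pgd and Gstm2 had lower values in males, by -1.11 ± 0.28, -1.08 ± 0.27 and -0.73 ± 0.19 (adjusted p = 0.0617, 0.0579 and 0.0683), and were not called.

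Other lists differed between the sexes as well. In males Cyp2b9 and Cyp2b13, female-typical cytochromes, were lower by -3.41 ± 0.69 and -4.02 ± 0.91, and pericentral Oat and Rhbg by -0.88 ± 0.21 and -1.44 ± 0.19 (limma, adjusted p = 0.0205, 0.0359, 0.0462 and 0.0015). Of the 8 CAR, PXR and AHR targets, which include both cytochromes, 3 lay above 0, with a median of -0.15. Of the 9 pericentral genes 4 lay above 0, with a median of -0.20. Of 8 macrophage markers Clec4f and Vsig4 were lower, by -0.62 ± 0.10 and -0.74 ± 0.13 (adjusted p = 0.0047 and 0.0088). Of 8 stellate markers, with 3 above 0 and a median of -0.12, Lrat was lower, by -0.87 ± 0.19 (adjusted p = 0.0312). Of 5 cholangiocyte markers, with 2 above 0 and a median of -0.05, Sox9 was higher, by 0.96 ± 0.17 (adjusted p = 0.0079). Their part in the values of the list was not tested.

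**Figure D5:**
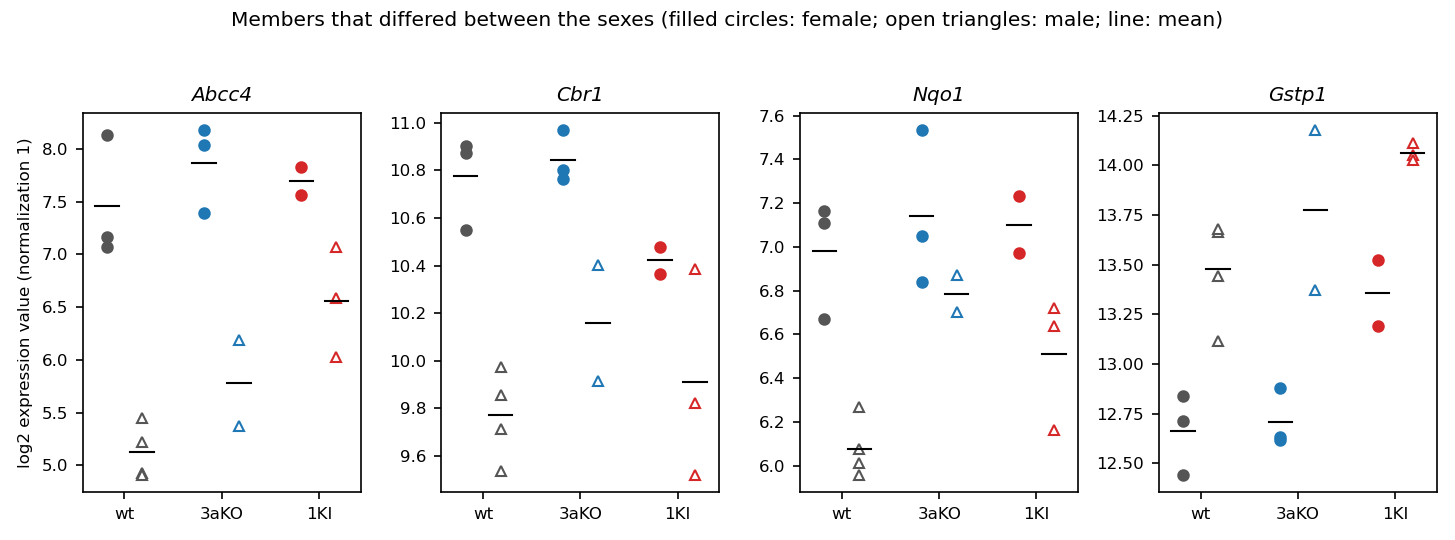
Log2 expression values of Abcc4, Cbr1, Nqo1 and Gstp1 in normalization 1 for wt, 3aKO and 1KI, with filled circles for females, open triangles for males and lines for their means. In normal liver females lie above males in Abcc4 and Cbr1 and below them in Gstp1; in Nqo1 the sexes are apart in wt and overlap in 3aKO.

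Other genes of the pathway were read beside the list: 43 were listed and 33 measured. In 3aKO against wt limma called 0 of them, beside 0% of all genes. At an unadjusted p under 0.05, 3 were higher and 0 lower, beside 3.62% and 3.84% of all genes. These were led by Cul3 at 0.24 ± 0.08 and Fth1, ferritin heavy chain, at 0.17 ± 0.07. In 1KI limma called 0 against wt, beside 0.209% of all genes higher and 0.0330% lower. Unadjusted, 6 were higher and 3 lower, beside 9.05% and 10% of all genes. Against 3aKO it called 0, beside 0% of all genes, with 2 higher and 2 lower unadjusted, beside 6.00% and 8.01%. Ptgr1, a reductase of reactive lipid aldehydes and ketones, led against wt at 0.93 ± 0.35, followed by Ugdh at 0.40 ± 0.16. Gsto1, an omega class glutathione transferase, led against 3aKO at -0.58 ± 0.10 (adjusted p = 0.0881), followed by Gsto2 at -0.44 ± 0.14.

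In 3bKI tumours Gstz1, the zeta class enzyme of tyrosine breakdown, was lower than in wt, at -0.38 ± 0.08 (limma, adjusted p = 0.0446). It was 1 of 33, beside 0.978% of all genes, and 0 were higher, beside 1.09%. Against 3aKO 3 of 33 were lower and 0 higher, beside 6.27% and 2.92% of all genes. The RNA control ratio did not overlap between these groups. Mafg, a small MAF partner of NRF2, was lower by -0.69 ± 0.14 (limma, adjusted p = 0.0224). Cul3, the ubiquitin ligase scaffold that works with KEAP1, was lower by -0.42 ± 0.10 and Gsto1 by -0.50 ± 0.12 (adjusted p = 0.0306 and 0.0372). Between the sexes 1 was higher in males and 2 lower, beside 1.10% and 1.43% of all genes. Lap3, a leucine aminopeptidase, was higher by 0.43 ± 0.09. Hmox1, heme oxygenase, and Aldh3a2, fatty aldehyde dehydrogenase, were lower by -0.56 ± 0.13 and -1.16 ± 0.27 (adjusted p = 0.0193, 0.0332 and 0.0391).

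The remaining genes of the list passed no test in the main fit of any comparison, though some were called under the alternatives described below. Against wt, Gsta3 changed by 0.18, -0.09 and -0.20 in 3aKO, 1KI and 3bKI. Gstm1, Gstm2, Gstm4 and Gstm6 lay above 0 in all 3, from 0.10 to 0.94. Gstt1 changed by 0.09 to 0.12, and Mgst1 by -0.16 to -0.09. Taldo1 stayed between -0.03 and 0.03 and Pgd between 0.25 and 0.34. Gsr, glutathione reductase, changed by 0.14, 0.13 and -0.21, and Txnrd1, thioredoxin reductase, by 0.11, 0.27 and -0.13. Aox1, aldehyde oxidase, changed by 0.14, 0.16 and -0.33, and Cat, catalase, by -0.09, -0.02 and -0.20.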

How the data were processed

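Log2 expression of each probe set was used as deposited by the authors, in 2 normalization runs. Per the labels' protocols, RNA was taken with Trizol and 5 ug gave biotinylated cRNA, and the summarisation method is not given in the sources used here. No value was renormalized. Each gene was its single-symbol probe set of highest mean (GEO platform annotation), and 18 of the 36 genes had several. Every comparison was fitted on its own 2 groups, without a pairing, by limma 3.58.1 in R 4.3.3 (lmFit, eBayes), two-sided, with Benjamini-Hochberg adjustment over 18193 genes and calls at an adjusted p under 0.05. The fits were tested on simulated data. P-values set a mean difference against the spread between these samples within their groups. An array was female where Xist exceeded a log2 value of 10 and Eif2s3y and Kdm5d, the 2 Y-linked genes measured, averaged under 5, and male in the opposite case. Genes with values in every array were those called, the 4 of lowest p per comparison, Nfe2l2, Keap1, Nqo1, Gclc and Gclm. Of the other lists the called genes or the 2 of lowest p were named, and any further gene was picked with its values in view. The members and lists were chosen with earlier results of these data known. Alternatives covered normalization, centring, dim genes, probe sets, groups in the fit, variance model, array weights, sex, RNA ratio, replicate block and single arrays. Promoters came from RefSeq, GRCm38.p6.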

Additional observations from a re-analysis of the deposited data

Results flagged for a closer look

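Over 144 groups of arrays (36 genes in wt, 3aKO, 1KI and 3bKI), 9 had an array farther from the rest than Dixon's 95% limit allows, where chance gives about 1 in 20. In wt, Gstm6 was high in replicate 5 at 10.04 (others 8.86 to 9.34), Gstt1 low in replicate 4 at 11.40 (others 11.89 to 12.20) and Keap1 high in replicate 6 at 9.68 (others 9.16 to 9.30). In 3aKO, Cbr3 was low in replicate 2 at 5.60 (others 5.75 to 5.80). In 1KI, Srxn1 was high in replicate 4 at 11.36 (others 8.97 to 9.58). In 3bKI, replicate 2, the array of unclear sex and lowest RNA control ratio (0.70) of that group, was low in Gsta2 at 6.84 (others 8.79 to 9.12), Ephx1 at 10.45 (others 11.91 to 11.99) and Sod1 at 12.76 (others 13.02 to 13.07). Srxn1 was low in 3bKI replicate 1 at 9.27 (others 9.48 to 9.51), still above every normal liver.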

How the results depend on the processing

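No called result changed direction under any alternative. Of 24 single-gene results under all alternatives, 469 values kept their side of the threshold, 92 lost a call and 7 gained one. The causes were not tested.

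The median change in 3aKO liver against wt was -0.022 with females only and 0.54 with males only. For 1KI against wt, with 2 genes called higher, quantile normalization (Nfe2l2) and trend and robust gave 1 and females only 1 (Gstm3), and the mean of probe sets, males only, and 1KI arrays 3 and 4 left out gave 0. The sex covariate gave 3, adding Gstp1. The median was 0.39 in males against wt and -0.12 against 3aKO.

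For 3bKI against wt, 1 gene (Srxn1) was called higher with a sex covariate, and 0 with females only or the RNA ratio as a covariate. The median was -0.0099 with the sex covariate and with females only. Against 3aKO, 0 were higher and 0 lower with a sex covariate, females only or the RNA ratio, 1 (Sod1) was lower after quantile normalization, and the median was 0.044 with the RNA ratio. Between the sexes 2 were higher (Gsr, Gstp1) with centred arrays, without the 40% dimmest genes or with array weights, and 0 in wt only. With array weights 6 were lower.

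The replicate numbers were fitted as a block, although same-numbered arrays correlated between -0.47 and 0.44 and are no pairing. With the replicate block 0 genes were higher in 1KI against wt, 1 (Abcc3) was lower in 3bKI against wt, where Cbr3 lost its call (adjusted p = 0.0885) and Gstm4 gained one beside Srxn1, and 0 were higher or lower in 3bKI against 3aKO.

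Leaving out 1 array at a time gave 0 to 1 higher genes for 1KI against wt and 1 to 3 for 3bKI against wt. It gave 0 to 3 lower genes for 3bKI against 3aKO, and 1 to 2 higher and 2 to 7 lower between the sexes.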
